A study of Mus musculus with 12 samples.

Results

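The genes described here decide what a cell does with pyruvate, the end product of glycolysis. They are 10 listed genes, Pdk1, Pdk2, Pdk3, Pdk4, Pdp1, Pdp2, Pdha1, Ldha, Ldhb and Pkm, out of 19938 genes measured with 1 gene symbol. They were listed by name, with earlier results of these data known. Each was represented by 1 transcript cluster, a set of array probes for 1 locus, and a gene with more than 1 cluster was read from its brightest one, averaged over the 12 arrays. All 10 were measured and none was removed by a filter on low values.

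RNA came from MLO-Y4 cells, an osteocyte-like line from mouse long bone that carries a viral large T antigen driven by the osteocalcin promoter, and all groups share this line. For 48 h they were kept in a superconducting magnet whose strong field has a steep gradient along the bore (LG-HMF) and so offsets or adds to their weight, and 3 arrays were made for each of 4 groups. The μ-g group was held where the magnetic force offsets gravity, the 2-g group where the force adds to gravity at the same magnetic induction, and the 1-g group where the induction is higher and the force on the cells is absent. The control group was kept in an incubator outside the magnet at normal gravity, so place of culture and field cannot be told apart in the comparisons with control. Inside the magnet each group had its own position in the bore, so position and force cannot be told apart there. In the comparisons with 1-g the induction differs as well. Set 1 compares μ-g with control, set 2 compares 2-g with control, and set 3 compares 1-g with control. Set 4 compares μ-g with 2-g, and the comparisons of 1-g with μ-g and with 2-g were added. These comparisons share arrays and are not independent of each other. The 3 samples of each group are labelled as biological replicates. Separate cultures are not described, so that the p-values reflect the spread between these samples alone, which may be technical. Fewer cells of a kind and less RNA per cell cannot be told apart in such bulk samples.

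In cells with enough oxygen pyruvate enters the mitochondrion, where the pyruvate dehydrogenase complex turns it into acetyl-CoA for the TCA cycle. Pyruvate dehydrogenase kinases (PDK) phosphorylate the E1α subunit of this complex and switch it off, and pyruvate dehydrogenase phosphatases (PDP) remove the phosphate and switch it on. Pyruvate that stays in the cytosol is reduced to lactate by lactate dehydrogenase (LDH), which restores the NAD+ that glycolysis needs. Pdk1, Ldha and Pkm are known targets of the low-oxygen factor HIF-1, and osteoblast lineage cells are known for making much lactate.

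Of the 10 genes, Pdk1, Ldha and Pkm differed among the 4 groups and took the same order, lowest in μ-g and 1-g, higher in control and highest in 2-g. In μ-g v.s. 2-g the level of Pdk1 was 5.71-fold lower, that of Ldha 1.54-fold lower and that of Pkm 1.45-fold lower. By the F test of limma over the 4 groups these 3 were called at an adjusted p under 0.05, against 3.15% of all genes. In each of the 3 genes every 2-g array lay above every control array and every control array above every μ-g and 1-g array, an arrangement that 51 of the 19938 genes (0.256%) had. Pdk2, Pdp1, Pdp2, Pdha1 and Ldhb were not called in any comparison, with or without the replicate number as a block in the fit. Pdk3 and Pdk4 were not called in the fit over the 12 arrays, and were called with the block in several comparisons and under a few other settings.

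**Figure D1:**
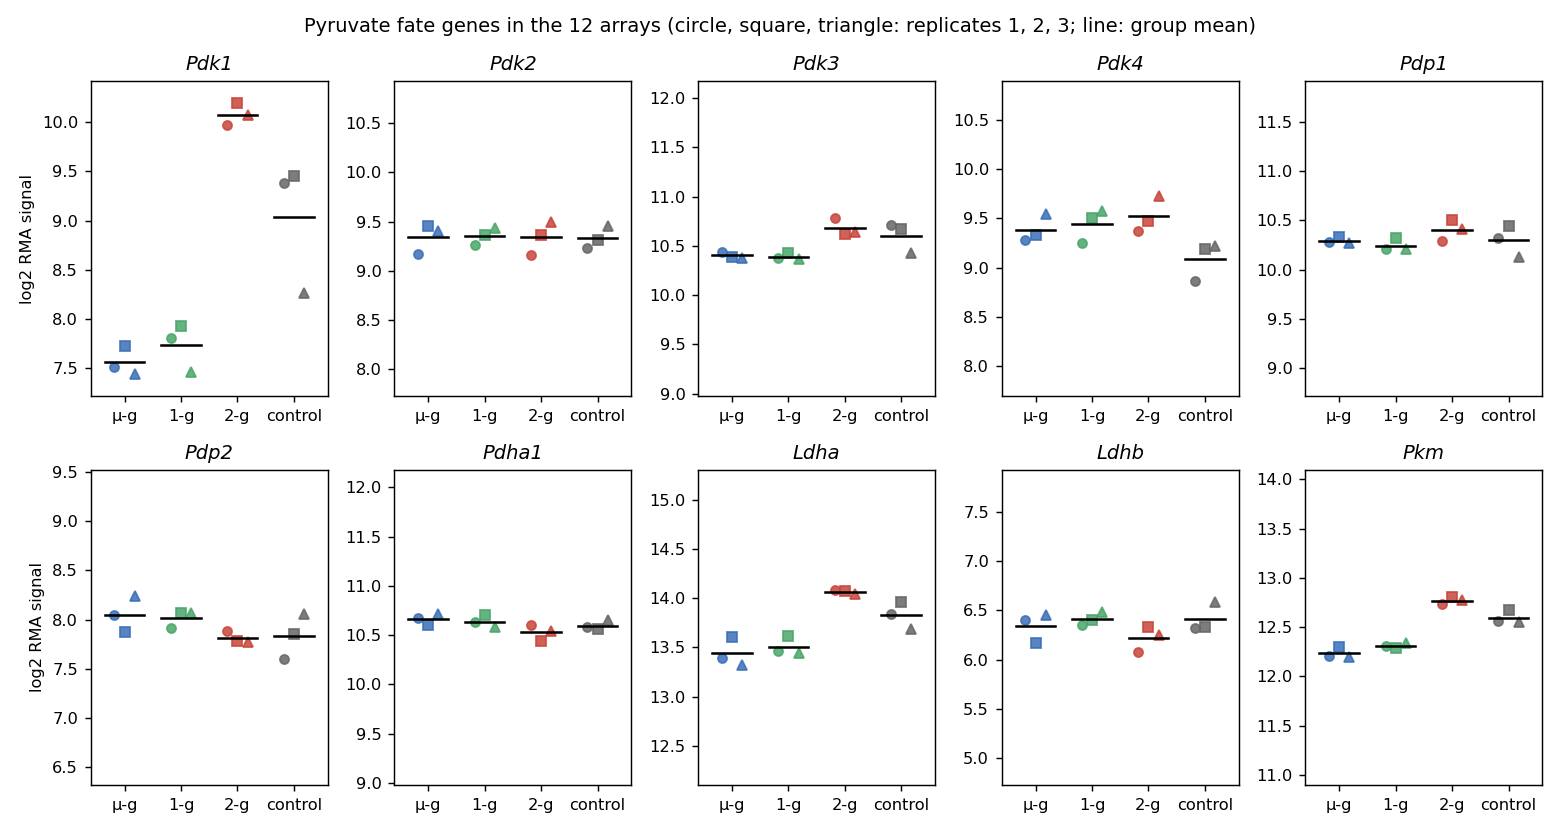
Log2 RMA signal (vertical axis) of the 10 genes in each of the 4 groups (horizontal axis), with a circle, square and triangle for replicates 1, 2 and 3 and a line for the group mean; every panel spans the same number of log2 units. Pdk1 runs from 7.44 in a μ-g array to 10.19 in a 2-g array, Ldha and Pkm follow the same order over a smaller range, and the group means of Pdk2 lie within 0.02 of each other.

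Levels are log2 signals after RMA, and differences are log2 fold changes from limma with their standard error (SE), a 95% interval where given and a p adjusted by Benjamini and Hochberg over all 19938 genes. The words rose and fell are kept for an adjusted p under 0.05. In set 1, 2 of the 10 genes fell and 0 rose, where 0.386% of all genes fell. In set 2, 1 rose and 0 fell, where 1.68% of all genes rose. In set 3, 1 fell and 0 rose, where 0.145% of all genes fell, and in set 4, 3 fell and 0 rose, where 1.49% of all genes fell. In 2-g v.s. 1-g, 3 rose and 0 fell, where 1.26% of all genes rose. In μ-g v.s. 1-g limma called 0 of the 10 genes and 0 of all genes (0.00%), while 460 genes (2.31%) had an unadjusted P under 0.05 and none of the 10 was among them. The median log2 fold change of the 10 genes was −0.12 in set 4, where that of all genes was 0.03, and 0.09 in set 2, where that of all genes was 0.00.

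**Figure D2:**
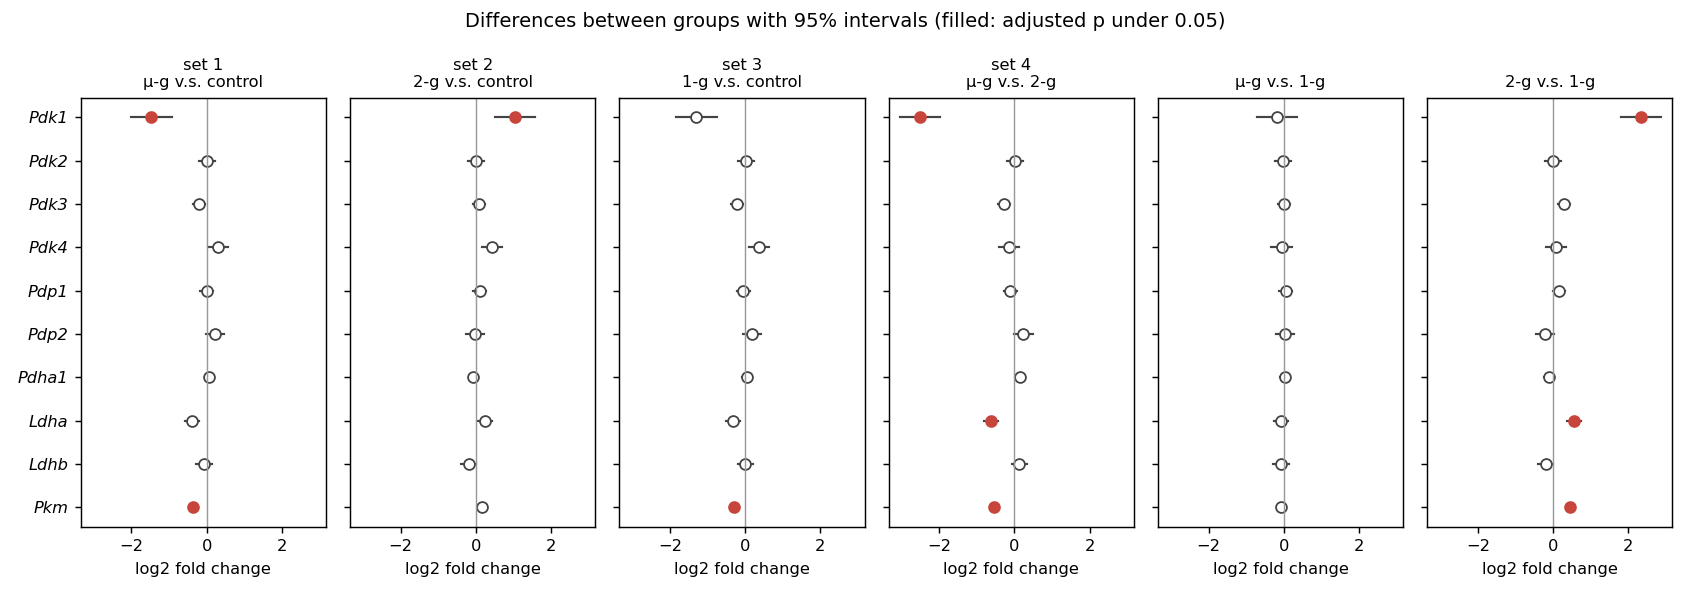
Log2 fold change (horizontal axis) of the 10 genes (rows) in the 6 comparisons (panels), with 95% intervals from limma; filled points have an adjusted p under 0.05. Pdk1, Ldha and Pkm lie to the left of 0 in set 4 and to the right in 2-g v.s. 1-g, while in μ-g v.s. 1-g all 10 intervals cross 0.

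Pdk1 is the kinase of the family that is best known for shutting pyruvate out of the mitochondrion at low oxygen. Its level was 7.51, 7.73 and 7.44 in μ-g, 7.81, 7.93 and 7.47 in 1-g, 9.97, 10.19 and 10.07 in 2-g, and 9.38, 9.45 and 8.27 in control. The μ-g and 1-g arrays overlapped, and the 2-g arrays were the highest. Control replicate 3 lay more than 1 log2 unit below the other control arrays, yet above all μ-g and 1-g arrays. Pdk1 fell by 1.47 in set 1 (SE 0.25, adjusted p = 0.0273), by 2.51 in set 4 (SE 0.25, adjusted p = 0.000207) and rose by 1.04 in set 2 (SE 0.25, adjusted p = 0.0431). In 2-g v.s. 1-g it rose by 2.34 (adjusted p = 0.000421). In set 3 its log2 fold change of −1.30 had an adjusted p of 0.0587, and 0.0106 with the replicate block. The μ-g v.s. 1-g difference was −0.17 with a 95% interval from −0.71 to 0.36.

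The calls of Pdk1 against control depended on single arrays. In set 1 the call was lost without μ-g replicate 1 (adjusted p = 0.118), μ-g replicate 3 (0.112), control replicate 1 (0.0713) or control replicate 2 (0.084). In set 2 it held without μ-g replicate 2, control replicate 2 or control replicate 3, and was lost without any other single array, at adjusted p from 0.0513 to 0.137. Without control replicate 3 the differences were −1.85 in set 1 (adjusted p = 0.00019), 0.66 in set 2 (adjusted p = 0.0452) and −1.68 in set 3 (adjusted p = 0.000523). In set 4 and in 2-g v.s. 1-g the call held without each of the 12 arrays, with differences from −2.60 to −2.45 and from 2.21 to 2.44.

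Promoter sequence is shown for the 3 genes that moved together and for Pdk2, a kinase of the same family that was not called. The windows are the 250 bases before a RefSeq transcription start on GRCm38.p6, given 5′ to 3′ on the strand of the gene, and capitals mark ACGTG or GCGTG on either strand, the core letters bound by HIF factors.
Pdk1, chr2:71872974-71873223, plus strand: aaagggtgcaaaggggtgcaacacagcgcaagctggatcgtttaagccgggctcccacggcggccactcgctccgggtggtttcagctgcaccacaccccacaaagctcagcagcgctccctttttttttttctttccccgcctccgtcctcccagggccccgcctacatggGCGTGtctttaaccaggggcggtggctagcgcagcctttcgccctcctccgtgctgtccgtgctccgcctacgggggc
Ldha, chr7:46845554-46845803, plus strand: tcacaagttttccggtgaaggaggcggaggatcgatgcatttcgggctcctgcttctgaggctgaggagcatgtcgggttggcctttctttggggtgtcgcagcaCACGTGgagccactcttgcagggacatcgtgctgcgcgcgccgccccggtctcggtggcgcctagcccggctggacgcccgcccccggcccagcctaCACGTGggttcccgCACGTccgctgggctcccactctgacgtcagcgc
Pkm, chr9:59656977-59657226, plus strand: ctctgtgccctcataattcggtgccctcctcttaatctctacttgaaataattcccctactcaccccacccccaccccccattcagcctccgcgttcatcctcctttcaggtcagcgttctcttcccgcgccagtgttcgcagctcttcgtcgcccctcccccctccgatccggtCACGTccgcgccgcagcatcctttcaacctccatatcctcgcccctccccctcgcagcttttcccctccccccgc
Pdk2, chr11:95041372-95041621, minus strand: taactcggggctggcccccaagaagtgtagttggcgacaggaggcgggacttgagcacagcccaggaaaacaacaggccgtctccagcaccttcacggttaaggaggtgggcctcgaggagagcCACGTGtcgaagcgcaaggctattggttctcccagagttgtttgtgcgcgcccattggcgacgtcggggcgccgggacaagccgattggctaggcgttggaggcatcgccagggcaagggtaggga

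The Ldha window held 5 matches of ACGTG and the Pkm window 1, and the Pdk1 window held 1 match of GCGTG. In Ldha 4 of the 5 matches come from 2 copies of the palindrome CACGTG, which reads as ACGTG on both strands, and the 2 matches of Pdk2 come from 1 such copy. Of 32841 promoter windows of this length, 16.6% held ACGTG, 28.2% held GCGTG, 6.02% held CACGTG and 38.6% held either core. RefSeq windows were found for 9 of the 10 genes (all but Pdp1). Pdk3 had 1 match of ACGTG and 3 of GCGTG, Pdha1 had 3 of GCGTG, Pdk4 and Ldhb each had 1 of GCGTG and Pdp2 had 2 of ACGTG. The letters are a description of the windows and not evidence of binding, and further start sites of Pdk1, Pdk2 and Pkm had no match and that of Ldha had 1 of GCGTG.

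The other kinases did not share the pattern of Pdk1 to the same extent. Pdk2, the kinase found in most tissues, had 9.17, 9.45 and 9.41 in μ-g, 9.27, 9.36 and 9.43 in 1-g, 9.16, 9.37 and 9.50 in 2-g, and 9.23, 9.31 and 9.45 in control. The 4 groups overlapped fully, and in set 4 the difference was 0.00 with a 95% interval from −0.21 to 0.22. Pdk3, the kinase with the highest known activity and like Pdk1 reported to respond to low oxygen, had 10.44, 10.39 and 10.38 in μ-g, 10.38, 10.43 and 10.37 in 1-g, 10.78, 10.62 and 10.65 in 2-g, and 10.71, 10.67 and 10.43 in control. The 2-g arrays were above all μ-g and 1-g arrays, a lack of overlap with μ-g that 21.1% of all genes had, and control replicate 3 lay within the range of the μ-g and 1-g arrays. The difference of Pdk3 was −0.28 in set 4 (SE 0.07, adjusted p = 0.0594, and 0.017 with the replicate block, which called 9.18% of all genes) and 0.29 in 2-g v.s. 1-g (SE 0.07, adjusted p = 0.0561, and 0.0156 with the block, which called 7.57%). Without control replicate 3 both passed, at adjusted p = 0.0213 and 0.0184, and without control replicate 1 the latter stood just under 0.05. Both also passed with quantile normalization and among genes above the median level, and the latter in the fit on genes with 1 symbol alone.

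Pdk4, the kinase that rises on fasting and fat use in muscle and liver, took another order. Its level was 9.28, 9.34 and 9.55 in μ-g, 9.25, 9.51 and 9.58 in 1-g, 9.38, 9.48 and 9.73 in 2-g, and 8.87, 9.19 and 9.22 in control. All 9 arrays from the magnet lay above the 3 control arrays, which held for 506 genes (2.54%), and the 3 magnet groups overlapped. The differences from control were 0.30 in set 1 (SE 0.12, adjusted p = 0.295), 0.43 in set 2 (SE 0.12, adjusted p = 0.0815) and 0.35 in set 3 (SE 0.12, adjusted p = 0.301). In each group replicate 1 was the lowest, and with the replicate block the adjusted p was 0.00186 in set 2, where 9.38% of all genes were called, and 0.0157 in set 3 (1.77%). In set 2 it also passed among genes above the median level. The gap between the lowest magnet array and the highest control array was narrow, 9.25 against 9.22. In set 4 the difference of Pdk4 was −0.14 (95% interval −0.41 to 0.13).

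The phosphatases and the E1α subunit showed no call in any comparison. Pdp1, the calcium-stimulated phosphatase, ranged from 10.13 in control replicate 3 to 10.50 in 2-g replicate 2, and its largest difference was 0.16 in 2-g v.s. 1-g (adjusted p = 0.376). Pdp2, the other phosphatase, had 8.05, 7.87 and 8.24 in μ-g, 7.91, 8.07 and 8.07 in 1-g, 7.88, 7.79 and 7.77 in 2-g, and 7.60, 7.86 and 8.05 in control. Its 2-g arrays lay below the 1-g arrays (difference −0.20, adjusted p = 0.428), a lack of overlap that 19.5% of all genes had in that comparison. Pdha1 encodes the E1α subunit that the kinases phosphorylate. In 2-g it averaged 10.53 ± 0.08 (SD, n = 3), in control 10.60 ± 0.05, in 1-g 10.64 ± 0.06 and in μ-g 10.67 ± 0.06, and in set 4 the difference was 0.14 (95% interval 0.01 to 0.26, adjusted p = 0.239). Phosphorylation of E1α, the step on which the kinases act, is not measured by arrays.

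Ldha encodes the LDH subunit that favours lactate formation. Its level was 13.40, 13.60 and 13.33 in μ-g, 13.46, 13.62 and 13.45 in 1-g, 14.08, 14.08 and 14.04 in 2-g, and 13.84, 13.96 and 13.69 in control. The 2-g arrays were the tightest and the highest, and μ-g and 1-g overlapped. Ldha fell by 0.63 in set 4 (SE 0.08, adjusted p = 0.00209) and rose by 0.56 in 2-g v.s. 1-g (SE 0.08, adjusted p = 0.00469), and both calls held without each of the 12 arrays. In set 1 the difference was −0.39 (SE 0.08, adjusted p = 0.0569), which passed without μ-g replicate 2 at −0.47 (adjusted p = 0.0256). It also passed with arrays centred on their medians, with an intensity trend and robust prior, among genes above the median level and in the fit on genes with 1 symbol alone. In set 2 it was 0.24 (adjusted p = 0.155, and 0.0222 with the replicate block) and in set 3 −0.32 (adjusted p = 0.148, and 0.0196 with the block). Its μ-g v.s. 1-g difference was −0.07 (95% interval −0.25 to 0.11).

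Ldhb encodes the LDH subunit that favours the use of lactate. Its level ran from 6.08 in 2-g replicate 1 to 6.58 in control replicate 3, below the median of 7.50 over all genes, and no comparison was called. The array holds 2 clusters of this gene, whose levels over the 12 arrays had a Pearson's r of −0.33, so its values are uncertain. The tables used here give no position for the clusters, and another copy of the gene, such as a pseudogene, may contribute to either. In set 4 the cluster used gave a difference of 0.12 (adjusted p = 0.552) and the other 0.20.

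Pkm encodes pyruvate kinase of muscle and growing cells, which makes pyruvate in the last step of glycolysis, and its PKM1 and PKM2 isoforms were not told apart. Its level was 12.21, 12.30 and 12.19 in μ-g, 12.31, 12.28 and 12.34 in 1-g, 12.73, 12.80 and 12.77 in 2-g, and 12.57, 12.67 and 12.55 in control. The spread within a group was small, with a pooled SD of 0.05, against a range of 0.53 between group means. Pkm fell by 0.36 in set 1 (SE 0.05, adjusted p = 0.0125), by 0.29 in set 3 (SE 0.05, adjusted p = 0.0396) and by 0.53 in set 4 (SE 0.05, adjusted p = 0.000159), and rose by 0.46 in 2-g v.s. 1-g (SE 0.05, adjusted p = 0.000454). In set 2 the difference was 0.17 (SE 0.05, adjusted p = 0.0848, and 0.0387 with the replicate block). The set 4 and 2-g v.s. 1-g calls held without each of the 12 arrays. The set 1 call was lost without μ-g replicate 1 (adjusted p = 0.0699) or μ-g replicate 3 (0.0915), and the set 3 call was lost without any single array other than μ-g replicate 2, at adjusted p from 0.0556 to 0.147. The second cluster of Pkm followed the first (r = 0.974) and gave −0.46 in set 4. The positions of these clusters are not given here, so the second may not be independent of the first.

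The changes were small for Ldha and Pkm. At the threshold of the study, FC > 1.5 with an unadjusted P < 0.05, set 4 held Pdk1 and Ldha (0.707% of all genes), and Pdk1 alone was held by set 1 (0.206%), set 2 (0.466%), set 3 (0.140%) and 2-g v.s. 1-g (0.652%). Fitted on the 6 arrays of each comparison alone, limma called the 3 genes in set 4 and in 2-g v.s. 1-g, where 301 and 252 of all genes were called, and 0 of the 10 genes in sets 1, 2 and 3, where 0, 151 and 0 of all genes were called. Without control replicate 3 the genes called were Pdk1 and Pkm in set 1, Pdk1 in set 2, Pdk1 in set 3, and Pdk1, Pdk3, Ldha and Pkm in set 4. Over all genes, fits with 1 array left out called 2 to 392 in set 1 and 145 to 660 in set 2. They called 0 to 61 in set 3 and 219 to 670 in set 4. With 3 arrays a group, the smallest two-sided p of an exact permutation test is 0.1.

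The level of a list of 12 low-oxygen response genes moved with Pdk1, Ldha and Pkm. The list had been chosen with earlier results of these data known, and its behaviour is a description. Its mean level was 9.22 to 9.42 in the μ-g arrays, 9.27 to 9.45 in 1-g, 10.95 to 11.14 in 2-g, and 10.11, 10.59 and 9.88 in control replicates 1, 2 and 3. The 2-g arrays were again the highest, μ-g and 1-g overlapped, and control replicate 3 was again the lowest control array. Of the 12, 0 rose and 6 fell in set 1, 9 rose and 0 fell in set 2, 0 rose and 5 fell in set 3, and 0 rose and 11 fell in set 4. Of all genes 0.386% fell in set 1, 1.68% rose in set 2, 0.145% fell in set 3 and 1.49% fell in set 4. Without control replicate 3 0 rose and 7 fell in set 1, 2 rose and 0 fell in set 2, 0 rose and 4 fell in set 3, and 0 rose and 11 fell in set 4. The ranges of calls over all genes with 1 array left out are given above. With the replicate block 11 rose in set 2 and 8 fell in set 3, where the block called 9.38% and 1.77% of all genes. Over the 12 arrays, which share group and array effects, the list mean had a Pearson's r of 0.983 with Pdk1, 0.975 with Pkm and 0.971 with Ldha. The r of the deviations from the group means was 0.797, 0.753 and 0.777. The deviations of Pdk1 were largest in control, with an SD of 0.66 against 0.15 in μ-g, 0.24 in 1-g and 0.11 in 2-g. Pdp1, which was not called, had an r of 0.651 over the 12 arrays and of 0.836 for the deviations. The oxygen level at the cells was not measured, and its part in the result was not tested.

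**Figure D3:**
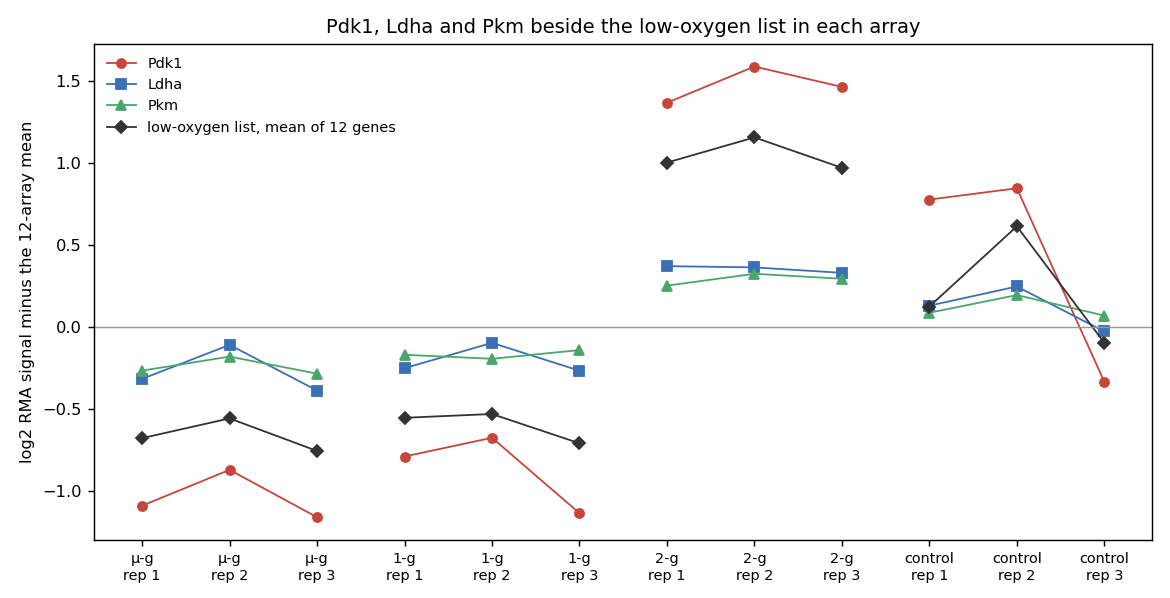
Log2 RMA signal minus the 12-array mean (vertical axis) of Pdk1, Ldha, Pkm and the mean of the 12 low-oxygen genes in each array (horizontal axis), with lines joining the replicates of a group. All 4 lie below 0 in the μ-g and 1-g arrays and above 0 in the 2-g arrays, and in control replicate 3 Pdk1 stands at 8.27 where the other control arrays have 9.38 and 9.45.

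Among the low-oxygen genes, Bnip3, a mitophagy receptor, fell by 2.69 in set 4 (SE 0.22, adjusted p = 8.4e-05), and Ak4, a mitochondrial adenylate kinase, fell by 3.39 (SE 0.28, adjusted p = 8.4e-05). Egln1, the oxygen sensor that marks HIF for breakdown, fell by 1.60 (SE 0.15, adjusted p = 0.000159), and Ndufa4l2, a mitochondrial protein induced at low oxygen, fell by 3.72 (SE 0.34, adjusted p = 0.000159). Their set 4 calls held without each of the 12 arrays. Vegfa, the 1 gene of the list not called in set 4, had a difference of −0.03 there. The fall of Pdk1 in set 4 lay between those of Egln1 and Bnip3.

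The genes whose levels over the 12 arrays were most like that of Pdk1 were Bnip3 (r = 0.993), Tmem45a (0.993), Pgm1 (0.992), Egln1 (0.989) and Pgk1 (0.987). For Ldha they were Pfkl (0.988), Fam162a (0.986), Clybl (0.986), Bnip3 (0.986) and Pgm1 (0.981). Pgm1 interconverts glucose phosphates, Pfkl is the liver form of phosphofructokinase and Pgk1 makes ATP in glycolysis. For Pkm they were Aldoa (0.983), the aldolase of glycolysis, Bnip3 (0.983), Cox7a1 (0.980), a subunit of cytochrome c oxidase, Gstm2 (0.979), a glutathione transferase, and Cdh13 (0.978), a cadherin without a transmembrane part. Bnip3 stood among the 5 most like genes of all 3. The differences between the groups enter these r values. For the deviations from the group means r ran from 0.888 to 0.935 for Pdk1, 0.871 to 0.960 for Ldha and 0.622 to 0.861 for Pkm.

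The partners of the 10 genes in pyruvate use were counted from lists of named genes, chosen with earlier results of these data known. Of 9 measured other parts of the pyruvate dehydrogenase complex and of its lipoate supply, 0 rose and 0 fell in sets 1 to 4, with log2 fold changes between −0.03 and 0.26 in set 4. With the replicate block 1 rose and 3 fell in set 2, 1 rose in set 4 and 2 fell in 2-g v.s. 1-g. The block called 9.38% of all genes in set 2, 9.18% in set 4 and 7.57% in 2-g v.s. 1-g. Of 13 other enzymes of pyruvate and lactate, such as pyruvate carboxylase, the malic enzymes and the alanine transaminases, 0 rose and 0 fell in sets 1 to 4, and with the block 1 fell in set 2, 1 rose in set 4 and 1 fell in 2-g v.s. 1-g. By limma's unadjusted P under 0.05, 5 of the 9 and 2 of the 13 would pass in set 2, where 16.7% of all genes would, and 3 of the 9 and 2 of the 13 in set 4, where 17.2% would. The median of the 9 was −0.14 in set 2, where that of all genes was 0.00, and 0.15 in set 4.

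Of 7 measured transport genes, 1 rose and 1 fell in set 2, where 1.68% and 1.43% of all genes did. In set 4, 2 fell (1.49% of all genes), and in 2-g v.s. 1-g, 2 rose (1.26%). With the replicate block 1 fell in set 3, where the block called 1.77% of all genes. Slc16a3 encodes MCT4, the carrier that exports lactate from glycolytic cells. Its level was 7.23, 7.35 and 7.12 in μ-g, 7.06, 7.33 and 6.99 in 1-g, 8.29, 8.19 and 8.12 in 2-g, and 7.37, 7.60 and 7.45 in control. It showed the same order as Pdk1, Ldha and Pkm with no overlap of control with the other groups. Slc16a3 rose by 0.73 in set 2 (SE 0.09, adjusted p = 0.00316) and fell by 0.97 in set 4 (SE 0.09, adjusted p = 0.000196), and both calls held without each of the 12 arrays. Bsg, the chaperone that brings MCT carriers to the membrane, fell by 0.40 in set 4 (SE 0.06, adjusted p = 0.00329), also without each of the 12 arrays. Mpc1, a subunit of the carrier that takes pyruvate into the mitochondrion, fell by 0.27 in set 2 (SE 0.06, adjusted p = 0.0389). That call was lost at adjusted p from 0.0502 to 0.149 without 1-g replicate 1 or 3, 2-g replicate 2 or 3, or control replicate 1 or 3. The difference of Mpc1 was −0.24 in set 1 (SE 0.06, adjusted p = 0.0946) and 0.03 in set 4 (adjusted p = 0.888), so its level in μ-g was near that in 2-g.

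**Figure D4:**
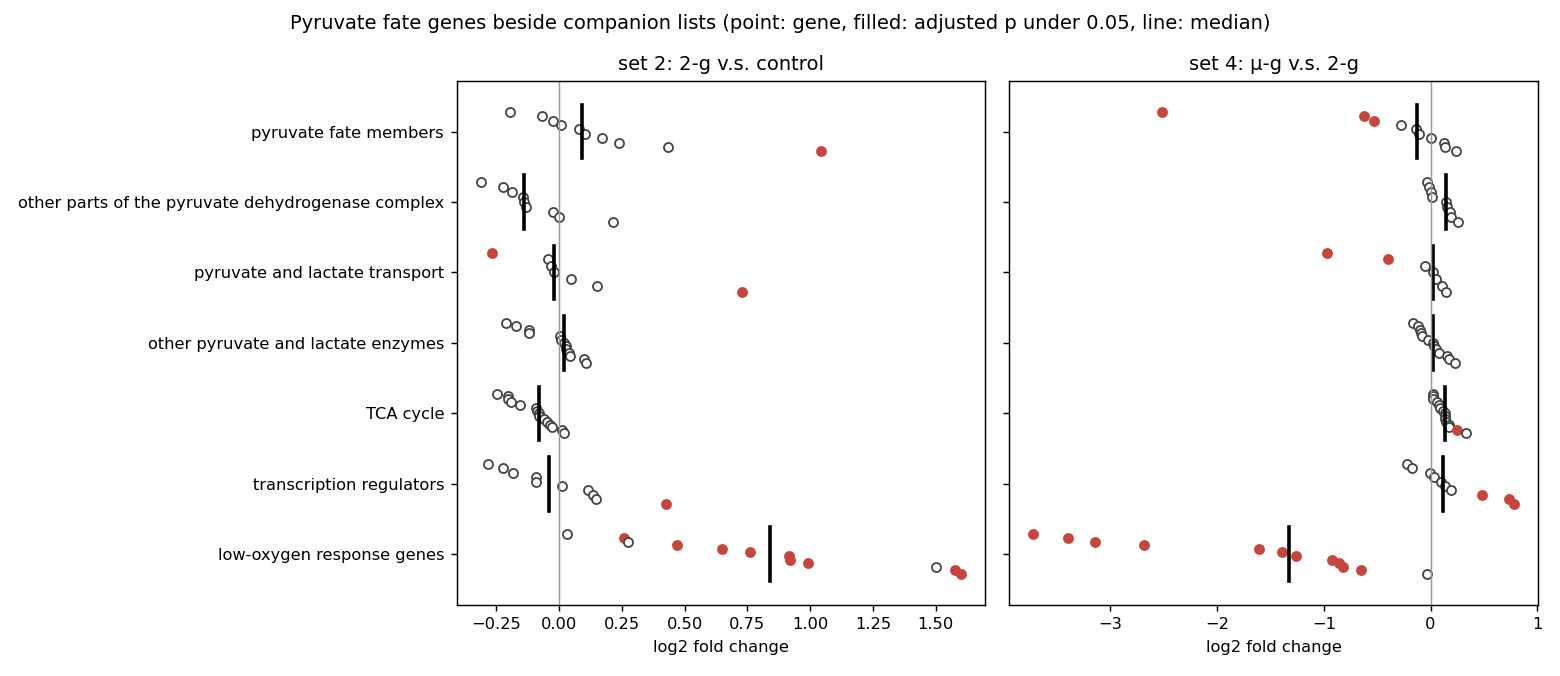
Log2 fold change (horizontal axis) of the 10 genes and of the genes in 6 companion lists (rows) in set 2 and set 4 (panels, each with its own scale); a point is a gene, a filled point has an adjusted p under 0.05, and a line is the median of a list. In set 4 the low-oxygen list has 11 filled points to the left of 0, the 10 pyruvate fate genes have 3 and the transport genes 2, while the other parts of the dehydrogenase complex have none.

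Of 15 measured TCA cycle genes, 0 rose and 0 fell in sets 1, 2 and 3, and 1 rose in set 4. Of all genes 1.38% rose in set 4, where the list's median was 0.13 and that of all genes 0.03. By limma's unadjusted P under 0.05, 1, 2 and 1 of the 15 would pass in sets 1, 2 and 3, where 14.0%, 16.7% and 10.8% of all genes would. By the same measure 5 would pass in set 4 (17.2% of all genes) and 6 in 2-g v.s. 1-g (15.3%). With the replicate block 1 fell in set 2, 1 rose in set 3, 2 rose in set 4 and 2 fell in 2-g v.s. 1-g. Of all genes the block called 9.38%, 1.77%, 9.18% and 7.57% in these comparisons. The gene called in set 4, Ogdh, a subunit of the 2-oxoglutarate dehydrogenase complex, rose by 0.25 (SE 0.06, adjusted p = 0.0401). The call was lost without μ-g replicate 1 or 3, 1-g replicate 3, any of the 3 2-g arrays or control replicate 1, at adjusted p from 0.0514 to 0.152.

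Of 10 transcription regulators of these pathways, 1 rose in set 1, 1 in set 2, 1 in set 3 and 3 in set 4, where 0.436%, 1.68%, 0.176% and 1.38% of all genes rose, and 0 fell in these sets. In 2-g v.s. 1-g, 3 fell, where 1.00% of all genes fell. With the replicate block 1 rose and 3 fell in set 2, 3 rose and 1 fell in set 3, 4 rose and 1 fell in set 4, and 1 rose and 3 fell in 2-g v.s. 1-g. Epas1 encodes HIF-2α, a subunit of the low-oxygen factors. It rose in μ-g, where Pdk1, Ldha and Pkm were low, by 0.64 in set 1 (SE 0.06, adjusted p = 0.00132) and 0.73 in set 4 (SE 0.06, adjusted p = 7.04e-05), and both calls held without each of the 12 arrays. In set 3 it rose by 0.49 (adjusted p = 0.0105), a call that was lost without 1-g replicate 1, 2 or 3 (adjusted p from 0.0593 to 0.0851). Ppargc1a, which coactivates genes of mitochondrial biogenesis, rose by 0.78 in set 4 (SE 0.11, adjusted p = 0.00393), and Pparg, a nuclear receptor of fat cells, by 0.48 (SE 0.07, adjusted p = 0.00508). Foxo1, a factor known to drive Pdk4 on fasting, rose by 0.42 in set 2 (SE 0.07, adjusted p = 0.00839). Foxo1 was the 1 regulator of the 10 whose 9 magnet arrays all lay above the control arrays, as those of Pdk4 did. Over all genes 506 (2.54%) had this arrangement, and a link between Foxo1 and Pdk4 was not tested.

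Marker genes were used to check the cells. Since probes differ in response, levels of different genes can be set side by side only roughly. Of 10 measured osteocyte and osteoblast markers, Pdpn, Gja1, Alpl and Col1a1 lay above the median of all genes, while the late osteocyte markers Dmp1, Sost, Phex, Mepe and Fgf23 and the osteoblast factor Sp7 lay below it. All 4 endothelial and all 4 muscle markers lay below it too. Cd68 and Cd14 of 5 macrophage markers, Ctsk of 4 osteoclast markers and Fabp4 of 3 adipocyte markers lay above it, while Adgre1, Ptprc and Calcr, which define macrophages, blood cells and osteoclasts, lay between 5.37 and 5.88 in all arrays. The mean of the macrophage list was 7.30 to 7.37 in the 2-g arrays and 7.38 to 7.53 in the others, and that of the osteoclast list 7.78 to 7.94 against 7.95 to 8.08. The genes of a list did not move alike. In 2-g v.s. 1-g the macrophage genes ran from −0.66 (Cd68) to 0.18 (Csf1r), with a median of 0.02. The osteoclast genes ran from −0.61 (Ctsk) to 0.13 (Ocstamp), with a median of −0.02, as over all genes. In set 2 these medians were −0.09 and −0.03, where that of all genes was 0.00. Ctsk, a protease on the osteoclast list, ran from 11.93 to 12.22 in the 2-g arrays and from 12.45 to 12.78 in the others. It fell by 0.50 in set 2 (SE 0.10, adjusted p = 0.0179) and rose by 0.58 in set 4 (SE 0.10, adjusted p = 0.0077). The other osteoclast markers, Acp5, Calcr and Ocstamp, lay below the median of all genes. Cd68, a lysosomal protein of macrophages, rose by 0.55 in set 4 (SE 0.11, adjusted p = 0.0247) and fell by 0.66 in 2-g v.s. 1-g. Col1a1, a chain of type I collagen, rose by 0.41 in set 2 (SE 0.08, adjusted p = 0.0177) and by 0.38 in 2-g v.s. 1-g. No other marker was called in any comparison without the replicate block. Their part in the 2-g results was not tested. The array medians over all clusters ran from 7.04 to 7.12, and no pair of arrays was identical.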

How the data were processed

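The authors hybridised total RNA to Affymetrix Mouse Gene 1.0 ST arrays and, per the labels, normalized with RMA. The deposited values are log2 RMA signals of 28856 transcript clusters on 12 arrays. Raw intensities were not reprocessed, and the sources used here do not give the version of RMA. No sample column was left unused. The number of arrays limits the precision.

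Clusters were named through the platform annotation and current mouse symbols: 21789 have 1 symbol, 1621 several and 5446 no symbol here, with 83 identifiers unmatched. Of the 999 genes that several clusters represent, the brightest cluster over all arrays was kept, without regard to groups.

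Group means were fitted over all 12 arrays and all clusters with limma 3.58.1 in R 4.3.3 (lmFit, eBayes, 8 residual and 3.90 prior degrees of freedom). Benjamini-Hochberg adjustment ran over 19938 genes. The fit was tested on simulated data. The members and lists were chosen with earlier results of these data known. Named are the 10 members, the 5 genes most like Pdk1, Ldha and Pkm by Pearson's r, and up to 4 members of each companion list called in sets 1 to 4, lowest F-test p first. Vegfa is named besides, as the low-oxygen gene not called in set 4. Promoters are from RefSeq (GRCm38.p6).

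Replicate numbers 1 to 3 recur in every group. Same-numbered arrays deviated together from their group means, with correlations from 0.230 to 0.499 outside set 1. In set 1 replicates 3 had a correlation of 0.0179. By the limit of 0.1 for each pair, the numbers pair the samples outside set 1, and blocked values are printed there where a call of the 10 genes or a count of a companion list changes. This pairing comes from the values, since no source says what the numbers stand for.

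Alternatives were the 6 arrays of a comparison alone, the replicate block, centring on medians, quantile normalization, an intensity trend with a robust prior, genes above the median level, adjustment over all clusters, the mean of a gene's clusters, the threshold of the study, leaving out each array and, chosen after seeing the data, a fit on genes with 1 symbol alone.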

Additional observations from a re-analysis of the deposited data

How the results depend on the processing

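In set 4 and 2-g v.s. 1-g Pdk1, Ldha and Pkm were called under every fit run, with 3 to 4 of the 10 genes called when 1 array was left out, and at the threshold of the study 2-g v.s. 1-g held 1 gene. The calls against control were less stable. With 1 array left out the number called ran from 0 to 3 in set 1, from 0 to 1 in set 2, from 0 to 1 in set 3 and from 3 to 4 by the F test over 4 groups, and it stayed at 0 in μ-g v.s. 1-g. Over all genes the calls then ran from 2 to 392 in set 1, 145 to 660 in set 2, 0 to 61 in set 3, 219 to 670 in set 4, 168 to 461 in 2-g v.s. 1-g and 206 to 791 by the F test. With the 6 arrays of the comparison alone 0 were called in set 1, set 2 and set 3. At the threshold of the study set 1 held 1. In set 2, 0 were called with an intensity trend and robust prior (549 of all genes) and 0 with adjustment over all clusters (620), and 2 (Pdk1 and Pdk4) among genes above the median level (868). In set 3, 2 (Pdk1 and Pkm) were called with arrays centred on their medians (59 of all genes), among genes above the median level (100), and in the fit on genes with 1 symbol alone (71). In set 1, 3 (with Ldha) were called in these fits and with the intensity trend. The 6-array fits had fewer arrays, and some fits were adjusted over fewer or more genes. The cause of these moves was not tested. No scaling moved the median of all genes by over 0.1.

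With the replicate block, 4 of the 10 genes were called in each of set 1, set 2 and set 3 (Pdk1, Pdk4, Ldha and Pkm), 4 in set 4 and in 2-g v.s. 1-g (Pdk1, Pdk3, Ldha and Pkm), 0 in μ-g v.s. 1-g and 5 by the F test. Over all genes the calls were 938 in set 1 against 164 without it, 1870 in set 2 against 620, 352 in set 3 against 64, 1831 in set 4 against 574, 1510 in 2-g v.s. 1-g against 451, and 2324 by the F test against 629. In set 1 the numbers do not pair all samples.

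Differences changed sign 42 times, in 7 genes, with 36 of them on leaving out 1 array, and none was called before or after. Those of Pdk2 became −0.028 in set 1, −0.014 in set 2, −0.017 in set 3, −0.014 in set 4 and 0.0030 in 2-g v.s. 1-g with quantile normalization, and −0.0013 in set 4 with median centring. With 1 array left out Pdk2 ran from −0.043 to 0.10 in set 1, −0.069 to 0.099 in set 2, −0.028 to 0.082 in set 3, −0.088 to 0.091 in set 4, −0.065 to 0.078 in μ-g v.s. 1-g and −0.090 to 0.078 in 2-g v.s. 1-g. Pdp1 ran from −0.090 to 0.070 in set 1 and −0.14 to 0.020 in set 3, and Pdp2 from −0.14 to 0.083 in set 2 and −0.060 to 0.12 in μ-g v.s. 1-g. Ldhb ran from −0.13 to 0.013 in set 1, −0.045 to 0.086 in set 3 and −0.13 to 0.011 in μ-g v.s. 1-g, and Pdha1 from −0.0026 to 0.059 there. Pdk3 ran from −0.0062 to 0.13 in set 2 and −0.0055 to 0.033 in μ-g v.s. 1-g, and Pdk4 from −0.16 to 0.0065 there and −0.020 to 0.16 in 2-g v.s. 1-g.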
